A study of Homo sapiens with 15 samples.

Results

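SLC3A2 encodes the heavy chain of the CD98 (4F2) antigen, and it was followed here with 7 genes for transporters that bring amino acids into the cell, SLC7A5, SLC7A6, SLC7A11, SLC7A1, SLC1A5, SLC38A1 and SLC38A2. The genes were chosen by symbol, 8 of the 59608 genes in the table, and all 8 were among the 13561 genes expressed highly enough to be tested. SLC3A2 was taken up because its level after 50 and 500 nM ZJ-101 stood far above that in DMSO in these same libraries, so its values are given as a description and carry no test. The 7 partners were listed for their transport role, with earlier results of these data known. The cells were MDA-MB-231, an established human triple-negative breast cancer line, grown in 2D culture and exposed for 6 h to DMSO vehicle or to ZJ-101, a synthetic compound that simplifies the structure of superstolide A, a product of a marine sponge. ZJ-101 was given at 0.5, 5, 50 or 500 nM, and each of the 5 groups had 3 biological replicates, which gave 15 libraries of poly-A RNA. All 4 doses were compared with the same 3 DMSO libraries. Values are normalized counts, that is, reads per gene divided by a size factor of the library. Log2 fold changes are on the log2(normalized count + 1) scale, and a gene was called changed where limma's p, adjusted by the Benjamini-Hochberg method over all tested genes, was under 0.05.

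The heavy chain does not itself move amino acids. It is a glycoprotein that crosses the membrane once, and a disulfide bond joins it to 1 of several light chains, which it carries to the cell surface. The light chain decides the cargo. SLC7A5 (LAT1) exchanges intracellular glutamine for leucine and other large neutral amino acids, SLC7A6 (y+LAT2) exchanges cationic for neutral amino acids, and SLC7A11 (xCT) takes up cystine in exchange for glutamate. The heavy chain also binds the cytoplasmic tails of β integrins. The other 4 transporters work without it: SLC7A1 (CAT1) carries arginine and lysine, SLC1A5 (ASCT2) exchanges glutamine and other small neutral amino acids, and SLC38A1 and SLC38A2 (SNAT1 and SNAT2) take up glutamine and alanine together with sodium. In many tumour cells these proteins supply glutamine, leucine and cystine for growth, and several of their genes are known targets of ATF4, a transcription factor made when amino acids run short.

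Promoter windows of 300 bases, from 250 bases before to 50 bases after a start site, were taken from RefSeq for the GRCh38.p14 build. There were 12 windows for 7 of the 8 genes and none for SLC7A11. Those that hold the core of the C/EBP-ATF element, through which ATF4 acts, are shown first, with SLC7A5 and SLC38A2 for contrast. Capitals mark matches to the motifs named after the sequences. All sequences are written 5′ to 3′ along the gene's strand.
SLC3A2 (chr11:62881449-62881748, plus strand, at an inner start site): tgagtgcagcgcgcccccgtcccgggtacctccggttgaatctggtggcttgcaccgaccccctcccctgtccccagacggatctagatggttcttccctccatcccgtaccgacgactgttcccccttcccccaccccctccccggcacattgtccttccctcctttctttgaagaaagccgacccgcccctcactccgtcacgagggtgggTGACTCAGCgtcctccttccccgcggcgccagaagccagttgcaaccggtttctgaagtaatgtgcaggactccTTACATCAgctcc
SLC38A1 (chr12:46266503-46266705, minus strand, part of the window of an inner start site): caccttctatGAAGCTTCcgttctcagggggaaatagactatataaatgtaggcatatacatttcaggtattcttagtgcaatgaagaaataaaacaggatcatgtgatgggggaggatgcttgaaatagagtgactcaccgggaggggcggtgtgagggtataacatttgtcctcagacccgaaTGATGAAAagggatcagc
SLC7A1 (chr13:29595664-29595783, minus strand): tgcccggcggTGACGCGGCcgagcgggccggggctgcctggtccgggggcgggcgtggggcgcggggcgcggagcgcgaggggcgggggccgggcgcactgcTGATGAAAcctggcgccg
SLC1A5 (chr19:46784858-46784957, minus strand, at an inner start site): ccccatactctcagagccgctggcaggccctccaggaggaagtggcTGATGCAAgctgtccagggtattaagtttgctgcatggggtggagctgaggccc
SLC7A5 (chr16:87869491-87869647, minus strand): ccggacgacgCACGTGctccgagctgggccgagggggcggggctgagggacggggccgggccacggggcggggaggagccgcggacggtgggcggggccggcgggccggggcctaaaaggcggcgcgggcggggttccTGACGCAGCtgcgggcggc
SLC38A2 (chr12:46372749-46372848, minus strand): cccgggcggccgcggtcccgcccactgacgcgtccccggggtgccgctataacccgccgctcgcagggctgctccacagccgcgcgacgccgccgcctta

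The C/EBP-ATF core, searched as TGATGNAA on both strands, was found in 3.62% of all 35116 RefSeq windows and in 4 of the 12 windows of these genes, 1 each for SLC3A2, SLC38A1, SLC7A1 and SLC1A5. In SLC3A2 it lies on the minus strand from base 38 to base 45 after the start, as TTACATCA. The same SLC3A2 window holds TGACTCAGC at -37 to -29, a match to the antioxidant response core TGACNNNGC, which occurs in 13.3% of all windows and also in SLC7A1, SLC7A5, SLC7A6 and SLC1A5. The E-box CACGTG occurs in 7.26% of all windows and was found in SLC7A5 at -130 to -125 and in another window of SLC1A5. A head-to-head pair of heat-shock units, GAANNTTC, occurs in 6.77% of all windows and was found in SLC38A1. The tail-to-tail pair TTCNNGAA (7.74% of all windows) and the ER stress element (0.0769%) had no match in these windows. The Golgi stress motif ACGTGGC (3.22%) had 1 match, in SLC7A6, where it overlaps an antioxidant match. The other 2 windows of SLC3A2 and the window of SLC38A2 held no match to any of the motifs. A match describes these letters only and is not evidence of binding, and the lack of a match covers these windows only, not the rest of the gene.

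Recovered reads on genes numbered 12415519 to 15284762 per library, size factors lay between 0.916 and 1.13, and mitochondrial genes took 0.889% to 2.06% of the reads. The lowest and the highest mitochondrial share both belonged to doses below 50 nM. The DMSO libraries held a mean of 14340 normalized counts of VIM (vimentin), 12150 of CD44 and 1303 of ZEB1, mesenchymal markers of this line, 4399 of the epithelial keratin gene KRT18, 293 of EPCAM, 196 of CDH1 and 144 of GATA3, 0 of the oestrogen receptor gene ESR1 and 1.65 of the leukocyte gene PTPRC. The progesterone receptor gene PGR had 14.0, and ERBB2, whose product is HER2, had 1226. At 500 nM 3 of 11 tested genes used to check the line were called, beside 17.8% of all tested genes. AXL was higher, and CD44 and CDH1 were lower. Replicate 2 of 0.5 nM stood apart, with the lowest value of its group for SLC7A5, SLC7A6, SLC7A11, SLC7A1, SLC38A1 and SLC38A2 and the highest for SLC3A2 and SLC1A5. Leaving it out raised the number of all tested genes called from 814 to 1276 at 50 nM and from 2409 to 3097 at 500 nM, since all groups share 1 estimate of the spread, and the number of partners called from 4 to 5 at 50 nM, with 7 at 500 nM either way. In bulk RNA, less RNA per cell and fewer cells of 1 kind cannot be told apart.

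SLC3A2 (chr11:62856004-62888880, plus strand; all positions of genes are on GRCh38) had the largest differences from DMSO of the 8 genes at 5, 50 and 500 nM. The DMSO libraries held 2389, 2433 and 2612 normalized counts (mean 2478 ± 118, SD, n = 3). At 0.5 nM the libraries held 2341, 2619 and 2781, and at 5 nM 3465, 4006 and 4200. The 0.5 nM libraries overlapped those of DMSO, while each 5 nM library lay above all of them. At 50 nM the libraries held 9062, 9539 and 9851, and at 500 nM 10228, 10476 and 10704. No library at either dose came near the range of the lower doses, and the lowest at 500 nM was above the highest at 50 nM.

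In means, SLC3A2 stood at 1.04 times the DMSO level at 0.5 nM, 1.57 times at 5 nM, 3.83 times at 50 nM and 4.22 times at 500 nM. On the log2 scale the differences from DMSO were 0.06, 0.65, 1.94 and 2.08. The step from 5 to 50 nM was the widest at 1.29, the step from 0.5 to 5 nM was 0.59 and the last step, from 50 to 500 nM, was 0.14. At 50 nM SLC3A2 had thus covered 93.1% of its log2 difference at 500 nM, and at 5 nM 31.1%. SLC3A2 was read deeply, with 2355 to 11581 recovered reads per library, and none of its exon bases are shared with another gene.

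**Figure D1:**
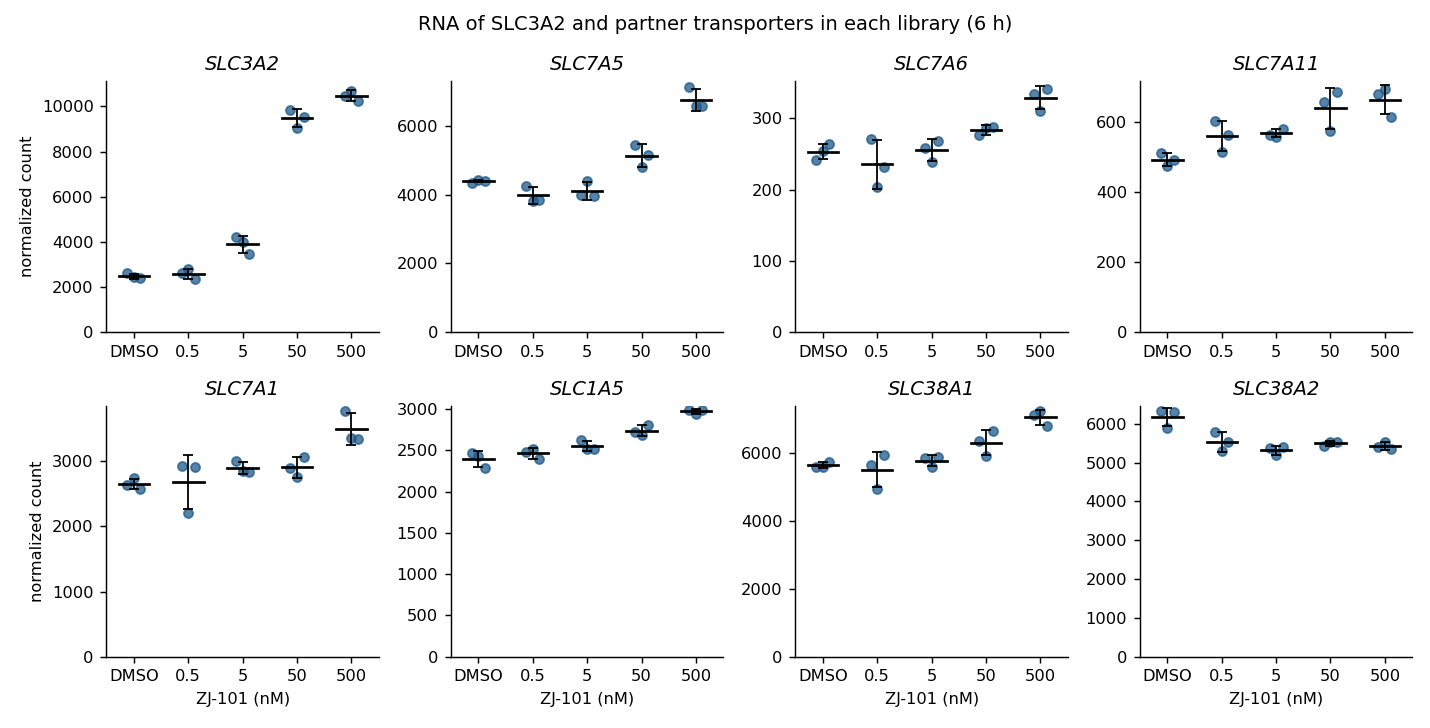
Normalized counts of SLC3A2 and the 7 partner genes in each of the 15 libraries, by dose of ZJ-101 in nM. Points are libraries, wide bars are group means and whiskers are SD of 3 libraries; each panel has its own axis from 0. SLC3A2 moves from 2389 to 2612 in DMSO to 10228 to 10704 at 500 nM, 6 partners end above DMSO by smaller amounts, and SLC38A2 lies below DMSO at every dose.

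From 5 nM on, the differences of the partner genes from DMSO were smaller than that of SLC3A2, and most calls came at the highest dose. At 500 nM all 7 were called, 6 higher and SLC38A2 lower, where 17.8% of all tested genes were called, 7.69% higher and 10.1% lower. At 50 nM 4 were called, with SLC7A5, SLC7A11 and SLC1A5 higher and SLC38A2 lower, against 6.00% of tested genes (2.29% higher, 3.71% lower). At 5 nM the single call was SLC38A2, lower, against 2.18%. At 0.5 nM limma called 0 of 7, against 1.17% of tested genes, a share from 159 genes that became 19 without DMSO replicate 1 and 391 without 0.5 nM replicate 3. Of the 7, 3 had an unadjusted limma p under 0.05, 1 higher and 2 lower, while edgeR called 0 and DESeq2 called 1, SLC38A2. The share of all tested genes at an unadjusted p under 0.05 is not given here. Nothing is therefore read from such counts, here or below. Among the partners the log2 differences at 500 nM ran from -0.19 to 0.62, where the median of all tested genes was 0.0027.

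SLC7A5 (chr16:87830023-87869507, minus strand), the LAT1 light chain, had the widest difference of the partners at 500 nM. At 50 nM SLC7A5 had covered 36.2% of that log2 difference, beside 93.1% for SLC3A2. The DMSO libraries were close together at 4356, 4395 and 4418 normalized counts. At 0.5 nM SLC7A5 had 3822, 3862 and 4261, all below DMSO, and at 5 nM 3956, 3980 and 4413, which overlapped DMSO. The differences from DMSO at these doses were -0.14 (limma adjusted p = 0.24) and -0.09 (limma adjusted p = 0.53) and did not pass the test. At 50 nM the libraries held 4797, 5165 and 5458, and at 500 nM 6579, 6588 and 7141, so that neither dose overlapped DMSO. SLC7A5 rose by 0.23 ± 0.06 (log2, SE) at 50 nM (limma adjusted p = 0.02) and by 0.62 ± 0.06 at 500 nM (95% interval 0.50 to 0.74, limma adjusted p = 1.9e-07), a mean of 1.54 times the DMSO level. The call at 50 nM was lost when DMSO replicate 1, 2 or 3 or 50 nM replicate 1 or 3 was left out, with limma adjusted p of 0.061 to 0.13.

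SLC7A11 (chr4:138164097-138242349, minus strand), the xCT light chain that imports cystine, lay above every DMSO library at each dose. The DMSO libraries held 475, 491 and 511 normalized counts, and the 0.5 nM libraries 516, 564 and 602. At 5 nM SLC7A11 had 558, 564 and 580, at 50 nM 573, 658 and 685, and at 500 nM 616, 681 and 694. The ranges of the 4 doses overlapped each other in part, those of 50 and 500 nM included. The log2 differences were 0.18 at 0.5 nM (limma adjusted p = 0.24) and 0.20 at 5 nM (limma adjusted p = 0.19). SLC7A11 rose by 0.37 at 50 nM (limma adjusted p = 0.0029) and by 0.43 at 500 nM (95% interval 0.28 to 0.58, limma adjusted p = 0.00032). An antisense gene, SLC7A11-AS1, shares 8.97% of its exon bases.

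SLC7A6 (chr16:68264516-68301823, plus strand), the y+LAT2 light chain, had the lowest normalized counts of the 8 genes. Its libraries held 242, 254 and 264 normalized counts in DMSO, 203, 232 and 271 at 0.5 nM and 239, 258 and 269 at 5 nM, and these groups overlapped. At 50 nM they held 276, 287 and 288 and at 500 nM 310, 334 and 342, all above DMSO. The difference at 50 nM was 0.16 (limma adjusted p = 0.38), and SLC7A6 rose at 500 nM by 0.38 (95% interval 0.19 to 0.56, limma adjusted p = 0.0063). Genes on the opposite strand, mainly SLC7A6OS, share 55.6% of its exon bases, and the strandedness of the counting is not given in the sources used here, so its counts cannot be assigned to SLC7A6 with certainty. Its 203 to 387 recovered reads per library also limit their precision.

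SLC1A5 (chr19:46774883-46788594, minus strand), the glutamine exchanger ASCT2, was called at 50 and 500 nM. Its libraries held 2282, 2429 and 2466 normalized counts in DMSO, 2390, 2479 and 2520 at 0.5 nM and 2512, 2519 and 2619 at 5 nM. At 50 nM they held 2684, 2717 and 2811, and at 500 nM 2939 in 1 library and 2991 in both others. From 5 nM on, every library was above DMSO, and the ranges at 5, 50 and 500 nM did not overlap each other. The differences were 0.04 at 0.5 nM (limma adjusted p = 0.69) and 0.09 at 5 nM (limma adjusted p = 0.34). SLC1A5 rose by 0.20 at 50 nM (limma adjusted p = 0.0055) and by 0.31 at 500 nM (95% interval 0.23 to 0.40, limma adjusted p = 1.9e-05). Opposite-strand genes share 23.8% of its exon bases.

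SLC7A1 (chr13:29509414-29595688, minus strand), the arginine and lysine carrier CAT1, rose at 500 nM and passed the test at no lower dose. Its mean was 2650.1 ± 81.8 normalized counts in DMSO (SD, n = 3), 2898 ± 92.7 at 5 nM, 2907 ± 158 at 50 nM and 3489.7 ± 246 at 500 nM. The 0.5 nM libraries were spread from 2202 in replicate 2 to 2914 and 2920 in the others, and so covered the whole DMSO range. SLC7A1 rose at 500 nM by 0.40 (95% interval 0.22 to 0.57, limma adjusted p = 0.0019), while the difference was 0.13 at both 5 nM (limma adjusted p = 0.56) and 50 nM (limma adjusted p = 0.45). The libraries of 5 nM, at 2841 to 3005, and of 50 nM, at 2757 to 3072, nevertheless all lay above the highest DMSO library, at 2736.

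SLC38A1 (chr12:46183063-46270017) and SLC38A2 (chr12:46358188-46372773), genes of sodium-coupled glutamine and alanine carriers near each other on the minus strand, moved in opposite directions at 500 nM. SLC38A1 held 5596, 5599 and 5744 normalized counts in DMSO and 6812, 7122 and 7244 at 500 nM, with no overlap. It rose there by 0.32 (95% interval 0.20 to 0.44, limma adjusted p = 0.00052), and its difference at 50 nM was 0.16 (limma adjusted p = 0.13, or 0.018 without 0.5 nM replicate 2). At 50 nM its libraries held 5913 to 6639, all above DMSO. As for SLC7A1, its lowest value at 0.5 nM, 4949, was in replicate 2. SLC38A2 held 5899.9, 6293 and 6316 in DMSO, 5287, 5526 and 5792 at 0.5 nM and 5187, 5372 and 5391 at 5 nM. It was already below every DMSO library at the lowest dose, and it stayed there at the higher doses, with 5424 to 5527 at 50 nM and 5346 to 5531 at 500 nM.

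SLC38A2 was the 1 partner that fell, with log2 differences of -0.16 at 0.5 nM (limma adjusted p = 0.084), -0.21 at 5 nM (limma adjusted p = 0.0098), -0.17 at 50 nM (limma adjusted p = 0.019) and -0.19 at 500 nM (95% interval -0.27 to -0.10, limma adjusted p = 0.0038). Its call at 5 nM was lost without DMSO replicate 1 (limma adjusted p = 0.07), DMSO replicate 3 (0.056) or 5 nM replicate 2 (0.065). At 50 nM it was lost without DMSO replicate 1 (0.1), DMSO replicate 3 (0.093), 50 nM replicate 1 (0.079) or 50 nM replicate 3 (0.054), and with no filter on low genes (0.058). The call at 500 nM held in every alternative fitted.

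**Figure D2:**
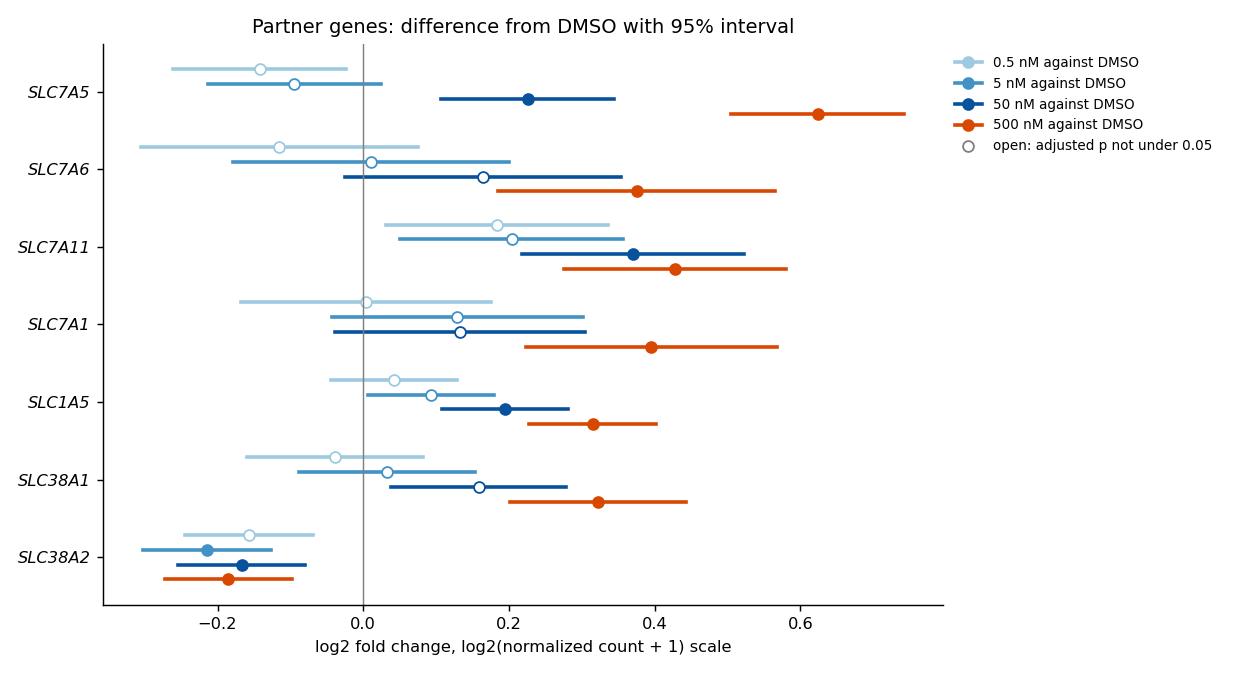
Log2 fold change of each partner gene against DMSO at the 4 doses, with its 95% interval, on the log2(normalized count + 1) scale. Filled points passed a limma adjusted p of 0.05 and open points did not. SLC7A5 reaches 0.62 at 500 nM with an interval of 0.50 to 0.74, and SLC38A2 is on the left of 0 at all 4 doses.

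Each dose was also compared with the one below it, and SLC7A5 was the 1 partner that limma called in any of these steps. From 0.5 to 5 nM no partner passed the test, by limma, edgeR or DESeq2, 0 had an unadjusted p under 0.05, and 0.118% of all tested genes were called. From 5 to 50 nM SLC7A5 alone was called, at 0.32 (limma adjusted p = 0.0017), where 5.01% of tested genes were, and 4 partners had an unadjusted p under 0.05. From 50 to 500 nM SLC7A5 was again the 1 partner called, at 0.40 (limma adjusted p = 0.00049), where 2.28% of tested genes were, and 5 had an unadjusted p under 0.05. In that last step SLC7A1 differed by 0.26 (limma adjusted p = 0.12) and was called by DESeq2, with the 6 libraries of both doses alone and without 0.5 nM replicate 2, where SLC38A1 was called too, at 0.16 (limma adjusted p = 0.025). As shares of the log2 difference at 500 nM, the value at 50 nM was 36.2% for SLC7A5, 33.6% for SLC7A1, 43.8% for SLC7A6, 49.2% for SLC38A1, 62.0% for SLC1A5 and 86.6% for SLC7A11, beside 93.1% for SLC3A2. These shares rest on means of 3 libraries and were not tested against each other.

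Levels can be compared between genes only per length, and here as normalized counts per kb of all exon bases of a gene. In DMSO the order was SLC38A2 at 948 ± 36 (SD, n = 3), SLC7A5 at 921 ± 6.56, SLC1A5 at 718 ± 29.2, SLC38A1 at 564 ± 8.46, SLC3A2 at 388 ± 18.5, SLC7A1 at 345 ± 10.6, SLC7A11 at 51.1 ± 1.86 and SLC7A6 at 33.4 ± 1.43. The ranges of SLC38A2 and SLC7A5 overlapped in DMSO, and those of the other neighbours did not. At 500 nM SLC3A2 came first at 1638 ± 37.3, ahead of SLC7A5 at 1421 ± 67.6, SLC1A5 at 893 ± 9.05, SLC38A2 at 834 ± 14.7, SLC38A1 at 705 ± 22.2, SLC7A1 at 454 ± 32.0, SLC7A11 at 68.8 ± 4.35 and SLC7A6 at 43.3 ± 2.15. No neighbours in this order overlapped. Opposite-strand genes share 55.6% of the exon bases of SLC7A6, so its last place in both orders is uncertain. The place of SLC3A2 depends on which length is used, because its exons together span 6392 bases while its longest transcript has 2843. Per kb of the longest transcript it ranked 3 of 8 in DMSO, at 872 ± 41.5, and 1 at 500 nM, at 3683 ± 83.8. With that length SLC38A2, at 1131, also stood ahead of SLC1A5, at 1032, at 500 nM.

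The ratio of heavy chain RNA to the summed RNA of the 3 light chains was highest at 50 nM. SLC7A5 made up 90.3% to 92.7% of that sum in every group mean. Per kb of all exon bases it was 0.386 ± 0.021 in DMSO (SD, n = 3), 0.438 ± 0.048 at 0.5 nM, 0.637 ± 0.064 at 5 nM, 1.26 ± 0.026 at 50 nM and 1.07 ± 0.053 at 500 nM. The libraries of 50 nM, at 1.23 to 1.28, and of 500 nM, at 1.02 to 1.12, lay above all others and did not overlap each other, the 50 nM group being the higher. Per kb of the longest transcript the same ratio was 0.827 in DMSO, 2.69 at 50 nM and 2.30 at 500 nM, so the order of the doses was the same under both lengths while the value itself was not. Because SLC3A2 enters this ratio, it is given with no test. Among other light chains of SLC3A2, SLC7A8 and SLC7A10 had means under 1 normalized count in DMSO, and SLC7A7 had 93.5 ± 6.71.

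**Figure D3:**
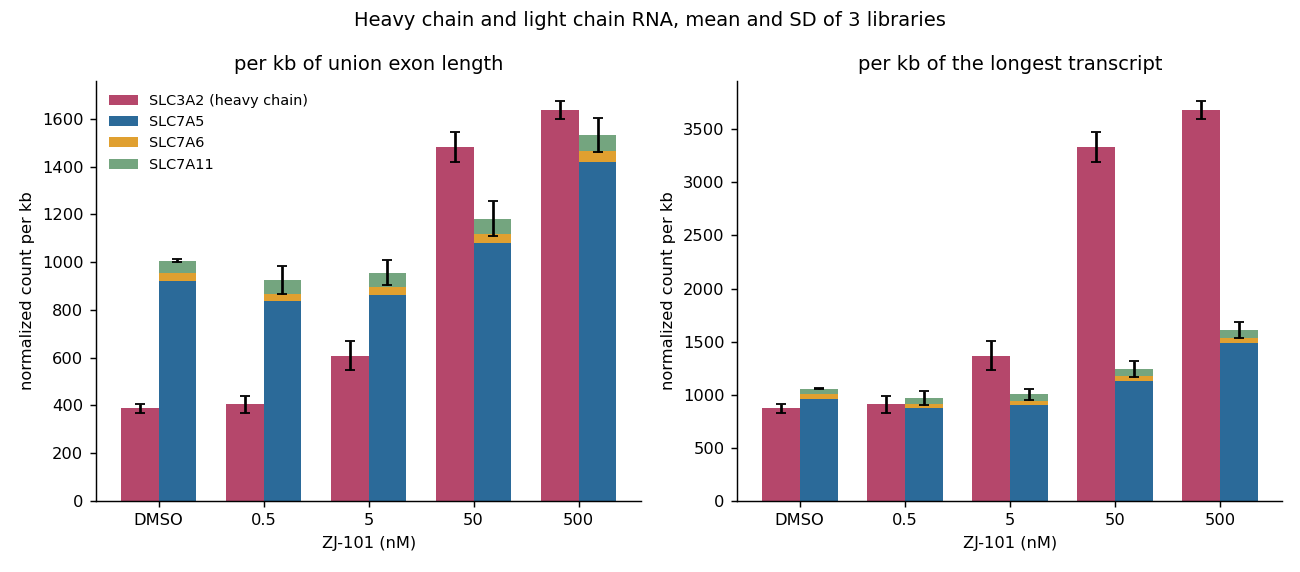
Mean normalized counts per kb of SLC3A2 (left bar of each pair) and of its light chains SLC7A5, SLC7A6 and SLC7A11 (stacked right bar) by dose of ZJ-101, per kb of all exon bases and per kb of the longest transcript. Whiskers are SD over 3 libraries, of SLC3A2 and of the light chain sum. Per kb of all exon bases the heavy chain is below the light chain sum in DMSO, at 388 against 1006, and above it at 500 nM, at 1638 against 1533.

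Of 22 further plasma membrane amino acid transporters, 12 were expressed highly enough to test. At 50 nM limma, edgeR and DESeq2 called 0 of them, where limma called 6.00% of all tested genes. Of the 12, 3 had an unadjusted limma p under 0.05. At 500 nM SLC7A2, the CAT2 carrier of arginine and lysine, rose from 691 ± 16.6 to 884 ± 35.2 normalized counts (SD, n = 3), by 0.36 (limma adjusted p = 0.0009), and the other 11 did not pass, where 17.8% of all tested genes were called. At 5 nM SLC1A3, a glutamate transporter, was called lower, where 2.18% of all tested genes were called. From 5 to 50 nM limma called 3 of the 12 higher, SLC1A3, SLC7A2 and SLC7A7, and edgeR and DESeq2 called 2, beside 5.01% of all tested genes called in that step. SLC43A1 (LAT3), a leucine carrier that needs no heavy chain, differed by 0.34 (limma adjusted p = 0.08).

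Of 13 tested amino acid transporters of lysosomes and mitochondria, 3 rose at 50 nM and 6 at 500 nM, where 2.29% and 7.69% of all tested genes were called higher. None was called lower by limma, edgeR or DESeq2 at either dose, with 1 lower at an unadjusted limma p under 0.05 at 500 nM. Their median at 500 nM was 0.174, beside 0.0027 for all tested genes. SLC38A9, the lysosomal arginine sensor of mTORC1, rose from 319 ± 6.30 to 430.1 ± 1.8 normalized counts, by 0.43 (limma adjusted p = 3.8e-05). CTNS, which exports cystine from lysosomes, rose by 0.39 (limma adjusted p = 0.00049), SLC36A1, which exports small amino acids with protons, by 0.36 (limma adjusted p = 0.0061) and SLC38A7, a lysosomal glutamine carrier, by 0.28 (limma adjusted p = 0.026). SLC15A4, a histidine and peptide carrier, rose by 0.17 (limma adjusted p = 0.023), and the mitochondrial carrier SLC25A44 by 0.25 (limma adjusted p = 0.018). No other mitochondrial carrier of the list was called at 500 nM, where their differences ran from -0.17 to 0.15, and none was called at 50 nM.

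A list of the amino acid response, ATF4 and its targets outside the 8 genes, had 27 tested genes. Of these, limma, edgeR and DESeq2 called 0 higher at 50 or 500 nM, and 1 was higher at an unadjusted limma p under 0.05 at 500 nM. At 500 nM 7.69% of all tested genes were called higher and 10.1% lower, and nothing particular to the list is read from these counts. ATF4 itself had 3694 ± 144 normalized counts in DMSO and 3683 ± 20.1 at 500 nM (difference -0.0038, limma adjusted p = 0.97). TRIB3 differed by -0.13 (limma adjusted p = 0.4) and DDIT3 (CHOP) by 0.29 (limma adjusted p = 0.3). At 500 nM limma and edgeR called 4 genes of the list lower and DESeq2 3. By limma VLDLR, a lipoprotein receptor, fell by 0.83 on the log2 scale (limma adjusted p = 7.8e-06), the transcription factor CEBPB by 0.72 (limma adjusted p = 1.1e-05), DDIT4, an inhibitor of mTORC1, by 0.49 (limma adjusted p = 0.00013) and CEBPG by 0.16 (limma adjusted p = 0.042). At 50 nM limma called DDIT4, VLDLR, CEBPB and PYCR1 lower, and DESeq2 called 3 lower. Over all tested genes limma called 3.71% lower at that dose. The median of the list at 500 nM was -0.0255. ASNS, asparagine synthetase and a widely used marker of this response, had 8.30 normalized counts in DMSO, below the filter, and 49.3% of its exon bases are shared with another gene.

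Leucine and arginine activate the kinase complex mTORC1 through a set of sensors, GTPases and their regulators. Of 26 tested genes of this machinery, limma, edgeR and DESeq2 called 0 at 50 nM, with 3 at an unadjusted limma p under 0.05. Over all tested genes limma called 6.00% at 50 nM, 2.18% at 5 nM and 5.01% from 5 to 50 nM. Of the 26, each tool called 1 higher at 5 nM, which for limma was NPRL3. From 5 to 50 nM each called 1 lower, for limma SESN3. SLC38A9, counted above with the lysosomal transporters, was called at 50 nM (0.33, limma adjusted p = 0.0014). At 500 nM limma called 2 of the 26, beside 17.8% of all tested genes. NPRL3, a subunit of the inhibitory GATOR1 complex, rose by 0.31 (limma adjusted p = 0.00075). RRAGA, a Rag GTPase, fell by 0.14 on the log2 scale (limma adjusted p = 0.047), a call that neither edgeR nor DESeq2 made.

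Cystine brought in by SLC7A11 feeds glutathione synthesis. Over all tested genes limma called 6.00% at 50 nM and 17.8% at 500 nM. Of 10 tested genes of glutathione synthesis and cystine use, none was called by limma or edgeR at either dose. DESeq2 called 1 higher at each dose, and at 500 nM 3 had an unadjusted limma p under 0.05, 2 higher and 1 lower. GCLC, the catalytic subunit of the rate-limiting enzyme, differed by -0.05 (limma adjusted p = 0.68), and GCLM, its modifier subunit, by -0.17 (limma adjusted p = 0.054). From 50 to 500 nM limma called GCLM lower, and edgeR and DESeq2 also called 1 gene lower. In that step limma called 2.28% of all tested genes. Of 11 tested genes of glutamine use, 3 rose and 3 fell at 500 nM. Over all tested genes 7.69% were called higher there and 10.1% lower. PFAS rose by 0.46 (limma adjusted p = 0.00016), CAD by 0.35 (limma adjusted p = 0.009) and CTPS1 by 0.26 (limma adjusted p = 0.0011), enzymes that use glutamine to make purines or pyrimidines. GFPT1, which uses it to make hexosamines, fell by 0.43 on the log2 scale (limma adjusted p = 7.9e-06), glutamate dehydrogenase GLUD1 by 0.19 (limma adjusted p = 0.0024) and glutamine synthetase GLUL by 0.22 (limma adjusted p = 0.0078).

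Of 6 tested genes for surface partners and ubiquitin ligases of the heavy chain, limma, edgeR and DESeq2 called 0 at 50 nM. At that dose limma called 6.00% of all tested genes, and 2 of the 6 were lower at an unadjusted limma p under 0.05. At 500 nM each tool called 3 of the 6 lower, where limma called 10.1% of all tested genes lower. ITGB1, the β1 integrin, fell from 25910 ± 469.9 to 21590 ± 302 normalized counts (SD, n = 3), by 0.26 on the log2 scale (limma adjusted p = 0.0011). The β3 integrin ITGB3 fell by 0.93 (limma adjusted p = 0.00046), from 155 ± 23.5 to 80.5 ± 5.78, and BSG, the immunoglobulin-like protein basigin (CD147) found in complexes with CD98, by 0.24 (limma adjusted p = 0.0097). Another gene shares 33.2% of the exon bases of ITGB3.

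**Figure D4:**
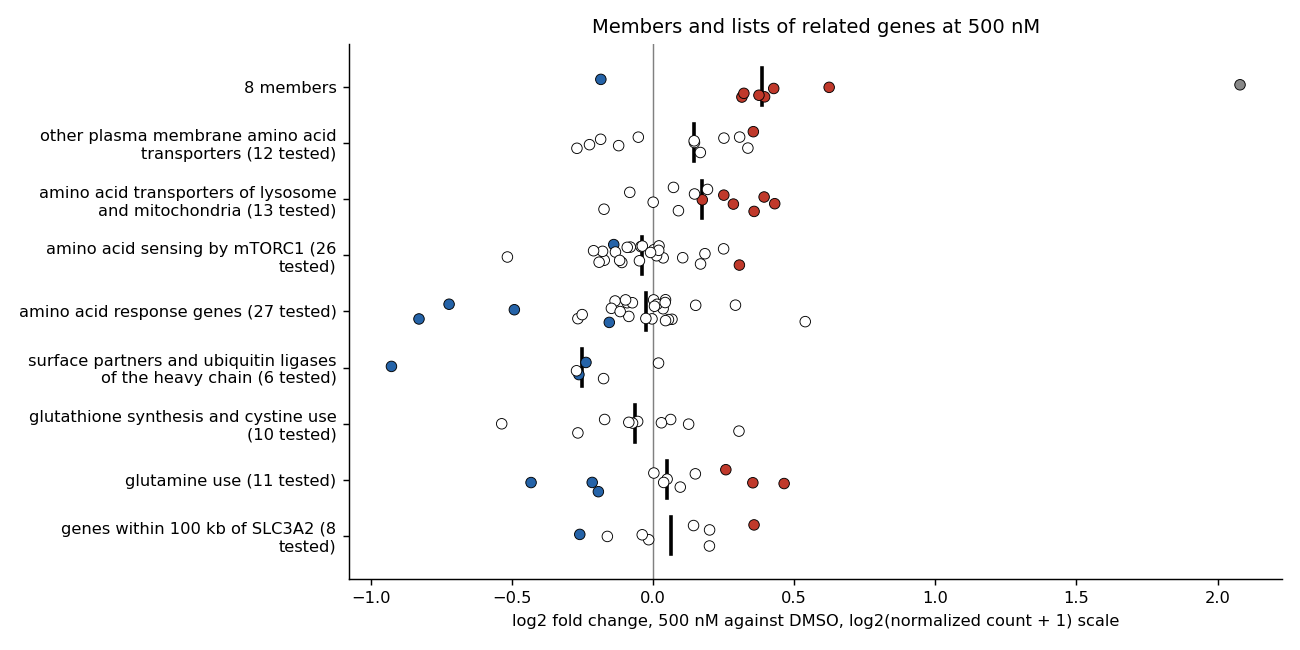
Log2 fold change at 500 nM against DMSO of the 8 genes and of the tested genes in lists of related function. Each point is a gene, red where limma called it higher, blue where lower, white where neither; SLC3A2 is grey because it was not tested, and black bars are medians. Called genes of the lysosome and mitochondria list are all higher, and those of the amino acid response and surface partner lists all lower. Of all tested genes 7.69% were called higher and 10.1% lower. Medians over the tested genes of these lists, called or not, are 0.174, -0.0255 and -0.25.

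The neighbours of SLC3A2 on chromosome 11 gave 1 call in each direction at 500 nM. At that dose 7.69% of all tested genes were called higher and 10.1% lower. Of 28 annotated genes within 100 kb, 8 could be tested. At 50 nM limma, edgeR and DESeq2 called 0 of the 8, where limma called 6.00% of all tested genes. An unadjusted limma p under 0.05 was found for 3 of them. With so few genes nothing particular to the locus is read from these counts. At 500 nM SNHG1, a snoRNA host transcript that starts at chr11:62855953 on the opposite strand, next to the start of SLC3A2, rose from 652 ± 62.6 to 836 ± 85.1 normalized counts, by 0.36 (limma adjusted p = 0.02). STX5, a syntaxin of the Golgi apparatus, fell by 0.26 on the log2 scale (limma adjusted p = 0.008).

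Among all tested genes, those whose pattern over the 15 libraries was most like that of SLC3A2 were ranked by Pearson's r on the log2 scale, a description that gives the shared dose course its weight. HSPA8, the constitutive Hsc70 chaperone, came first with r = 0.988, from 30800 ± 1800 to 72700 ± 839 normalized counts between DMSO and 500 nM. Among those that followed were EPHA2 (0.977), an ephrin receptor, ALG2 (0.976), a mannosyltransferase of N-glycan assembly, PTRH2 (0.976), MERTK (0.973), a receptor tyrosine kinase, PWWP3A (0.969) and AGPAT5 (0.969). SLC3A2 nevertheless had the larger log2 difference at 500 nM, 2.08 beside 1.24 for HSPA8 and 0.42 to 0.89 for the others named. The most opposed patterns were those of CHPF and CHPF2, which build chondroitin chains, and TPBG, a surface glycoprotein, each with r = -0.990, and of the galactosyltransferase B4GALT1 with -0.987.

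Of the partners, SLC1A5 was nearest to SLC3A2 with r = 0.929, rank 66 of 13560 genes. SLC7A5 had r = 0.843 (rank 306), SLC7A11 0.828 (rank 352), SLC38A1 0.818 (rank 398), SLC7A6 0.778 (rank 544), SLC7A1 0.670 (rank 1083) and SLC38A2 -0.469. In all, 137 tested genes had r over 0.9 and 198 had r under -0.9. Over the 12 treated libraries alone, r was 0.879 for SLC7A5, 0.919 for SLC1A5 and -0.0396 for SLC38A2. The points share dose groups and libraries, so these r values order the genes and carry no p.

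**Figure D5:**
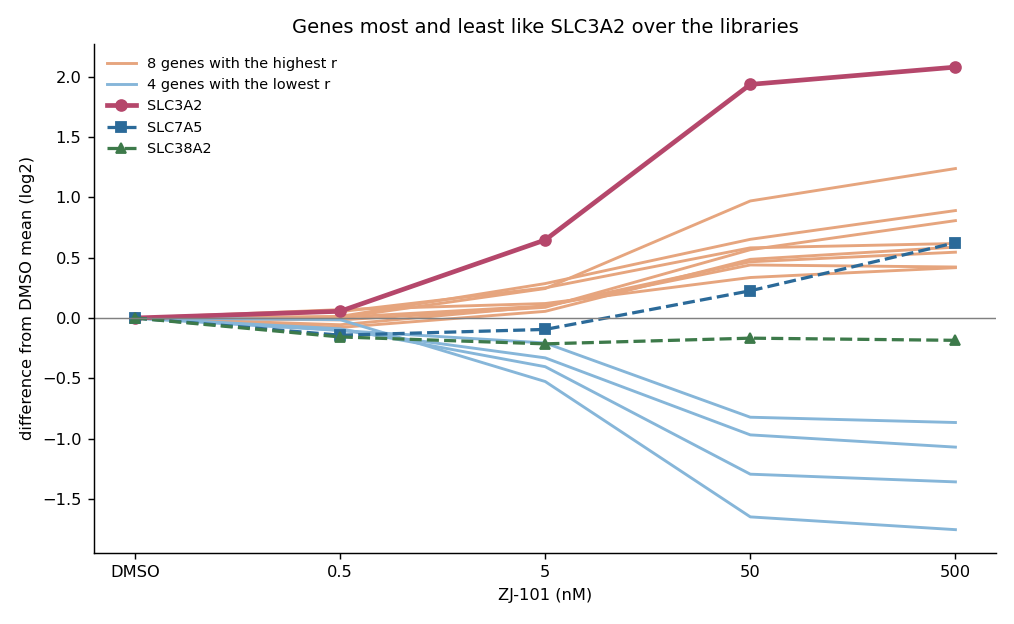
Mean difference from DMSO on the log2 scale by dose of ZJ-101 for SLC3A2, SLC7A5, SLC38A2, the 8 genes with the highest r with SLC3A2 and the 4 with the lowest. Lines join group means of 3 libraries. SLC3A2 reaches 2.08 at 500 nM and bends at 50 nM, the 8 genes with the highest r end between 0.42 and 1.24, and SLC7A5 is below 0 at 0.5 and 5 nM.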

How the data were processed

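RNA from 15 MDA-MB-231 cultures (5 groups of 3 biological replicates) was analysed, and the samples were grouped by the treatment in their labels. Poly-A RNA was sequenced in read pairs, and the authors mapped these with HISAT2 (genome build hg38), assigned them to GENCODE genes by htseq-count and scaled every library by a DESeq2 size factor. Tool versions, the GENCODE release and the strandedness of the counting are not given in the sources used here. The deposited values are therefore a normalized read signal (normalized counts) rather than raw counts. Whole reads were recovered from the smallest step of each library, with 100.0% of values whole within 0.001 of a read and a largest distance of 5.26e-05, and these recovered counts served for edgeR and DESeq2 only. 1 line without a gene was left out, which left 59608 genes. The chi-square between replicates of a group, divided by its degrees of freedom, was 2.04 to 16.5, so none was deposited more than once.

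Differences were tested by limma with a variance trend on log2(normalized count + 1) for 13561 genes with a mean of at least 10, with all 5 groups in 1 fit and Benjamini-Hochberg adjustment at 0.05. Each dose was compared with DMSO and with the dose below it. The limma fit was tested on simulated data, for the comparison of 500 nM with DMSO only. The genes, lists and motifs were chosen with earlier results of these data known. Named genes were the 8 transporters, the 8 genes with the highest and the 4 with the lowest r with SLC3A2 and, in each list and at the locus, up to 4 rises and 4 falls with the smallest p at 500 nM. SLC38A7, SLC15A4, SLC43A1, SLC7A7, SLC7A8, SLC7A10, SLC1A3, SESN3, ATF4, TRIB3, DDIT3, ASNS, PYCR1, GCLC and GCLM were named after their values were seen. Of the 8 genes with the highest r, 1 is not reported by name here. Of 28 genes in the mTORC1 list, 1 was not matched by symbol. Positions, exon overlaps and lengths came from GENCODE 44, and no near-identical transcript was found for any of the 8 genes with minimap2 2.31-r1302. As alternatives, the pseudocount was 0.5 or 5, the filter was absent or a mean of 50, and further fits used TMM scaling, the replicate number as a block, edgeR 4.0.16, DESeq2 1.42.0, the 6 libraries of a comparison, an adjusted p under 0.1 and each library left out. Tools were R 4.3.3, limma 3.58.1 and Python 3.11.15.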

Additional observations from a re-analysis of the deposited data

How the results depend on the processing

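No log2 difference from DMSO or between neighbouring doses changed its sign where it had been called, in any alternative fitted. The count of 7 partners called at 500 nM stayed at 7 in all of them. At 0.5 nM the count of 0 became 1 with DESeq2 and with an adjusted p under 0.1. At 5 nM the count of 1 became 2 with the 6 libraries of the comparison alone, and 0 to 1 with each replicate left out. It was 0 without DMSO replicate 1, DMSO replicate 3 or 5 nM replicate 2. At 50 nM the count of 4 ranged from 2 to 5 with each replicate left out, and leaving out replicate 1 or 3 of DMSO, or replicate 1 or 3 of 50 nM, gave 2. From 50 to 500 nM the count of 1 became 2 with DESeq2 and with the 6 libraries alone, and ranged from 1 to 3 with each replicate left out, 3 being the value without 0.5 nM replicate 2. The log2 difference of SLC3A2 from DMSO lay between 0.59 and 0.73 at 5 nM, 1.91 and 1.97 at 50 nM, and 2.05 and 2.12 at 500 nM in these alternatives.

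In their deviations from the group means, none of 30 pairs of same-numbered libraries had r over 0.1 (-0.0855 to 0.0961). The median r was 0.0121 for these pairs and -0.000562 for pairs of other numbers. Of 15 libraries, 9 correlated best with another library of their own number. This is a hint from the data and not the design, and whether replicates were paired cannot be told from it. With the replicate number as a block, the counts at 0.5, 5, 50 and 500 nM were 0, 1, 4 and 7, and the block changed no other call of the partners.

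Counts over all tested genes moved more. At 0.5 nM 159 genes were called, with 19 to 391 over the libraries left out. At 5 nM 295 genes were called, 113 without DMSO replicate 1 and 623 without 0.5 nM replicate 2, with 205 to 846 in the other alternatives. At 500 nM 2409 were called, with 1795 to 3097 over the libraries left out. With 3 libraries a group, small differences at 0.5 and 5 nM may go undetected, and the scaling assumes that most genes keep their level.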
